A study of Mus musculus with 4 samples.

Results

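Mitosis and G2/M genes are the genes that a cell transcribes to enter and complete division after its DNA has been copied. A fixed list of 42 such genes was read out of the 31053 gene rows measured in mouse thymocytes, by symbol and without regard to their values, and all 42 were present in both gene expression libraries. The study compared thymocytes from wild type thymi that had been transplanted 28 days earlier and were in one of 2 states, turnover or autonomy. Thymus turnover is the usual state, in which progenitors arriving from the bone marrow keep replacing those already in the thymus; thymus autonomy is the state in which the progenitors of the transplanted thymus sustain T cell development themselves. Each condition had 1 gene expression library and 1 library of T cell receptor sequences (V(D)J) from the same cells, both made with a 5′ single-cell kit from sorted cells labelled as DN3-DN4, ISP and double positive. The transplanted thymi are labelled wild type in both conditions, and the genotype, age and number of the hosts and donors are not given in the sources used here.

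Entry into mitosis depends on the kinase CDK1 with its cyclin A and cyclin B partners, which CDC25 phosphatases switch on. Aurora and Polo-like kinases then build the spindle, kinetochores attach the chromosomes, a checkpoint holds the anaphase-promoting complex until all are attached, and kinesins and contractile-ring proteins separate the daughters. In the thymus, most division occurs after a productive rearrangement of the T cell receptor beta chain (TRB), when cells pass from the double negative stage without CD4 and CD8, through an immature single positive stage (ISP, CD8 only), to the double positive stage (DP). Small DP cells then leave the cycle, rearrange the alpha chain and await selection.

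Many G2/M promoters carry a short element known as the CHR (cell cycle genes homology region), which is bound by the DREAM and B-MYB and FOXM1 complexes, together with CCAAT boxes bound by NF-Y. RefSeq promoter windows (GRCm38.p6, from 250 bases before to 50 bases after an annotated start) matched 35 of the 42 genes. The last 100 bases before the start are printed for 6 genes, 5 whose values the comparisons below turn on and Cdc20, the activator of the anaphase-promoting complex; each reads 5′ to 3′ along the strand of the gene, and capitals mark CHR letters (TTTGAA, with the variant TTCGAA) and CCAAT, on either strand.
Cdk1 (chr10:69352913-69353012, - strand): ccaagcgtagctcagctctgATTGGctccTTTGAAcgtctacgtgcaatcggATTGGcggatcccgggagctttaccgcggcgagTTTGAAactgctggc
Top2a (chr11:99024190-99024289, - strand): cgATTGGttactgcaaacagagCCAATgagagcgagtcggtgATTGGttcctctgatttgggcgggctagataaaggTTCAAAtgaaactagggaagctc
Ube2c (chr2:164769829-164769928, + strand): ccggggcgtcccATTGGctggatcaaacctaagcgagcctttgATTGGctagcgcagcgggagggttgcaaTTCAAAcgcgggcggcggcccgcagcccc
Cdc20 (chr4:118437344-118437443, - strand): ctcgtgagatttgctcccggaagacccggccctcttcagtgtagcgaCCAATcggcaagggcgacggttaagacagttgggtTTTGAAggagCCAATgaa
Ccnb1 (chr13:100786487-100786586, - strand): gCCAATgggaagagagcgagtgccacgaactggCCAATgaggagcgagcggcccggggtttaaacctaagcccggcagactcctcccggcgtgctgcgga
Cdc25b (chr2:131186848-131186947, + strand): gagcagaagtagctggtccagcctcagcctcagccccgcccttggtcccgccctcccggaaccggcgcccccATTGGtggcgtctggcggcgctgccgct
The windows of Cdk1, Top2a, Ube2c and Cdc20 hold both kinds of letters in these 100 bases, as do those of Kif11, Gas2l3 and Ckap2l. Ccnb1, which encodes cyclin B1, had a pair of CCAAT boxes, starting 99 and 67 bases before the start. Neither TTTGAA nor TTCGAA stood anywhere in its window, and other forms of the CHR were not searched. Cdc25b, which encodes a CDC25 phosphatase, had CHR letters only after its start, from base 8, and 1 CCAAT box.

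CHR letters stood in the windows of 28 of 35 genes (80.0%), against 16.3% of 8776 other genes with 20 or more UMIs (unique molecular identifiers, 1 per captured transcript) and 21.7% of all 27025 genes with a window. Within 50 bases of the start the shares were 71.4% for the mitosis and G2/M genes and 4.33% for those other genes. CCAAT was found in 26 of the 35 (74.3%) and in 43.7% of the others. E2F-type letters (TTGGCGC, with the variant TTCCCGC and the variant TTCGCGC, on either strand) were found in 6 of the 35 (17.1%), against 17.3% of the others. The E2F-type match in Ccnb1 overlaps its first CCAAT box. A match of letters is a description of sequence and not a measured binding site. By RefSeq coordinates the 42 genes lie on 16 chromosomes, with at most 8 on one, chromosome 2.

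**Figure D1:**
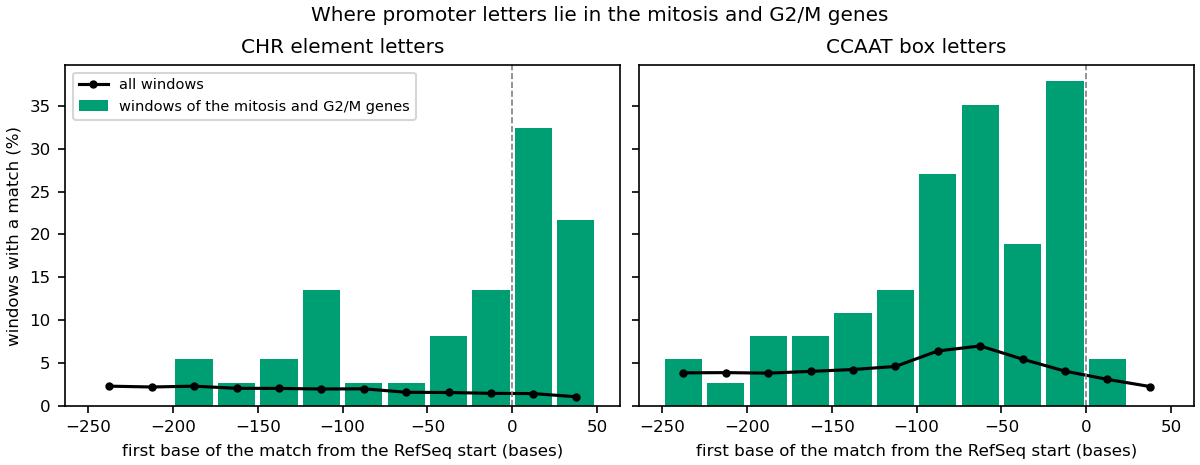
Share of promoter windows (y axis, %) with CHR letters (left) or CCAAT letters (right) whose first base falls in each bin of 25 bases (x axis, distance from the RefSeq start). Green bars are the 37 windows of the mitosis and G2/M genes and the black line all 32851 windows; CHR letters peak in the first 25 bases after the start, in 32.4% of the windows of these genes against 1.43% of all windows.

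Cell barcodes with 1000 or more UMIs numbered 4227 in turnover and 4414 in autonomy, with 29 barcode sequences in both libraries. Cells of 5000 or more UMIs, called large cells below, numbered 776 in turnover (median 13886.5 UMIs) and 499 in autonomy (median 10796 UMIs), and held 63.6% and 40.4% of each library's UMIs. Among the large cells, Xist, the transcript of the inactive X chromosome, was found in 0 of turnover and 313 of autonomy, and Y-linked transcripts without Xist in 624 and 115. The autonomy library therefore mixes cells with and without a Y chromosome, and values among Y-linked cells alone are given where they change a result. With 1 library a condition nothing here is a test between conditions: intervals are 95% exact intervals that cover counting error only, and differences between animals cannot be told apart from differences between conditions. A gene is called lower or higher when the libraries differ at least 1.5-fold in CPM (its UMIs divided by all UMIs of the cells and scaled to 1e6), with 20 or more UMIs in the groups compared.

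Over all cells of 1000 or more UMIs, the mitosis and G2/M genes were less abundant in autonomy almost throughout. Their UMIs summed to 5477 CPM in turnover and 2662 CPM in autonomy, a ratio of autonomy to turnover of 0.486 (0.481 to 0.491). Of the 42 genes, 39 were lower in autonomy and 0 higher, where 8.99% of 11674 genes were lower and 33.4% higher. Their median ratio was 0.445, against 1.23 for all those genes. Fewer dividing cells and less of these transcripts in each dividing cell cannot be told apart in such sums.

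All 8 role groups were lower in sum over all cells. The genes of spindle assembly and its kinases had the lowest summed ratio, 0.404, with 760 CPM in turnover and 307 CPM in autonomy. Ttk, the checkpoint kinase also known as MPS1, was the lowest single gene, at 18.3 CPM in turnover and 5.60 CPM in autonomy (ratio 0.306, 0.240 to 0.386). Ccnb1 stood near it, at 129 and 41.1 CPM (0.318), as did Cenpf, a kinetochore protein that appears in G2, at 167 and 53.2 CPM (0.318).

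The 3 genes not called over all cells were Cdc25b, Tmpo and Smc4. Cdc25b had 36.3 CPM in turnover and 47.8 CPM in autonomy (1.32, 1.19 to 1.46), the one gene whose interval lay above 1. Tmpo, which encodes the lamina-associated LAP2 proteins, had 198 and 196 CPM (0.987). Smc4, a condensin subunit that compacts chromosomes, had 561 and 401 CPM (0.716). With TMM scaling, which sets the libraries to the bulk of genes, Tmpo was at 0.811 and Cdc25b at 1.08 with an interval down to 0.976. In small cells the signal of the 42 genes was mostly Smc4 and Tmpo: among cells under 3000 UMIs, the pair made up 69.4% to 74.4% of the UMIs of all 42 genes in the bins of both libraries, against 10.9% to 13.4% in cells of 8000 or more UMIs. In those small cells Smc4 had 457 CPM in turnover and 379 CPM in autonomy.

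Most UMIs of these genes came from large cells, 94.3% in turnover and 84.6% in autonomy. In cells of 1000 to under 3000 UMIs the 42 genes summed to 718 CPM in turnover and 660 CPM in autonomy, a ratio of 0.918. In those cells, 11 of the 32 genes with enough UMIs were lower and 3 higher, against 6.73% and 25.1% of all genes; the 3 higher ones were Tmpo (1.68), Cdc25b (1.66) and Aurka (1.57), the kinase that matures centrosomes.

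Summed levels climbed with UMIs per cell at different points in the 2 libraries. Among cells of 5000 to under 8000 UMIs, the genes summed to 9115 CPM in the 171 turnover cells and 1531 CPM in the 164 autonomy cells. From 8000 to under 16000 UMIs the sums were 10139 and 6555 CPM, and from 16000 UMIs upwards 7259 and 6106 CPM. Among large cells the gap between the libraries was thus widest just above 5000 UMIs and narrowest from 16000 UMIs.

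**Figure D2:**
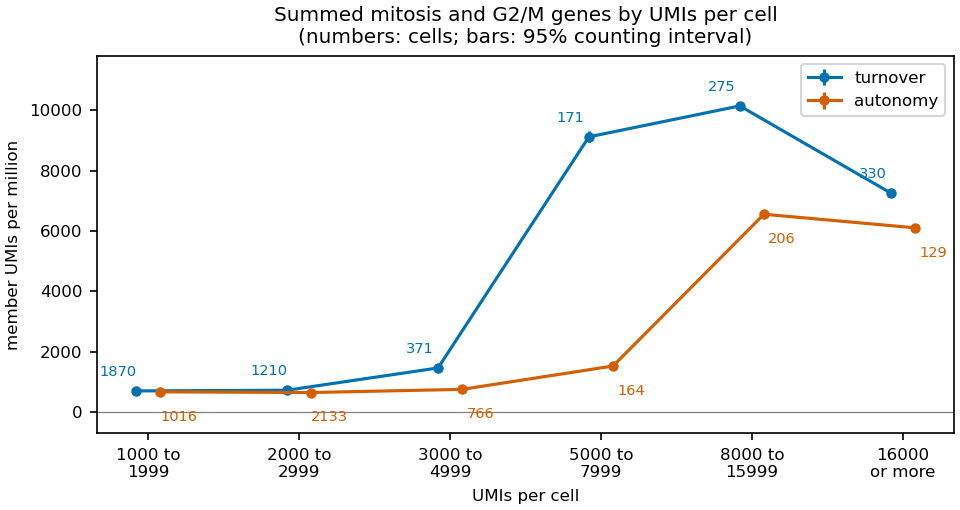
Summed UMIs of the 42 genes in CPM (y axis) by UMIs per cell (x axis) in turnover (blue) and autonomy (orange), with the number of cells beside each point and 95% counting intervals that are mostly smaller than the points. Both libraries stay at or below 1467 CPM in cells under 5000 UMIs, and between 5000 and 8000 UMIs turnover is at 9115 CPM and autonomy at 1531 CPM.

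Within large cells the difference was smaller and less uniform. The 42 genes summed to 8121 CPM in turnover and 5576 CPM in autonomy (ratio 0.687, 0.678 to 0.695). Of them, 20 were lower, against 6.84% of 10713 genes, and 1 was higher, against 28.3%. The median ratio was 0.671 for these genes and 1.15 for all genes. Scaling by TMM gave 35 lower and 0 higher and a summed ratio of 0.602. Without the cells carrying mature T cell or macrophage markers, nearly all of which were in autonomy, the summed ratio was 0.826.

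Among cyclins, CDK1 and its activators, Ccnb1 and Cdk1 were lower in large cells and Ccna2 and Ccnb2 were not. Ccnb1 had 200 CPM in turnover and 98.2 CPM in autonomy (0.492, 0.451 to 0.537). Cdk1 had 271 and 166 CPM (0.610). Ccna2, encoding cyclin A2, which acts from S phase to early mitosis, had 299 and 265 CPM (0.886), and Ccnb2, encoding cyclin B2, 268 and 212 CPM (0.793). The 2 B-type cyclins thus differed by unequal factors between the same cells. Cdc25b was the single gene called higher, with 47.2 CPM in turnover and 73.3 CPM in autonomy (1.55, 1.37 to 1.75); it was 1.36 with TMM scaling, 1.38 among Y-linked cells and 1.23 with cells thinned to 5000 UMIs, all under 1.5-fold. Cdc25c, its mitotic paralog, had 23.4 and 16.0 CPM (0.685), and Cdca3, which helps degrade the CDK1 inhibitor WEE1, 219 and 150 CPM (0.685).

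Of the 8 spindle genes 6 were called lower. Nusap1, which bundles spindle microtubules, had 299 CPM in turnover and 162 CPM in autonomy (0.543). Aurka had 105 and 55.6 CPM (0.528), and Hmmr, a spindle pole protein, 112 and 59.3 CPM (0.529). Tpx2, the activator of Aurora A, Ckap2 and Ckap2l, microtubule-associated proteins, were between 0.622 and 0.639. Plk1, the Polo-like kinase, at 0.730, and Tacc3, which stabilizes kinetochore fibres, at 0.758, were not called.

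Checkpoint and anaphase genes were spread from Ttk to Cdc20. Ttk had 28.5 CPM in turnover and 13.4 CPM in autonomy (0.471). Ube2c, the ubiquitin-conjugating enzyme of the anaphase-promoting complex, had 633 and 367 CPM (0.580). Cdc20 had 127 and 117 CPM (0.926, 0.849 to 1.01), the only one of the 42 whose interval spanned 1. The checkpoint proteins Bub1, Bub1b and Mad2l1 had ratios of 0.667, 0.760 and 0.675 and were not called, Bub1 and Mad2l1 lying close to the 1.5-fold limit.

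Of the 5 kinetochore genes 4 were lower. Cenpf had 258 CPM in turnover and 127 CPM in autonomy (0.491), Nuf2 58.0 and 31.4 CPM (0.541), Ndc80 86.2 and 50.9 CPM (0.590) and Cenpe, a kinetochore motor, 161 and 94.9 CPM (0.590). Nuf2 and Ndc80 encode partners in the complex that grips microtubules. Cenpa, the centromeric histone, was not called, at 221 and 186 CPM (0.843). The passenger complex genes Birc5 (survivin), Cdca8 (borealin) and Aurkb, its kinase, stayed within 0.704 to 0.753 and were not called.

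Kif11, the motor that pushes spindle poles apart (185 and 109 CPM, 0.588), and Kif20b, a motor of late cytokinesis (75.7 and 47.8 CPM, 0.632), were the 2 kinesins called lower. The others were Kif23, a motor of the central spindle, at 0.716, Kif2c, a microtubule depolymerase, at 0.719, and Kif20a at 0.766. For cytokinesis, Ect2, the activator of the contractile ring, had 94.2 CPM in turnover and 57.0 CPM in autonomy (0.605), and Anln, which scaffolds the ring, 39.5 and 28.6 CPM (0.725). Gas2l3, a cytoskeletal linker at the midbody, was lowest of all 42 in large cells, at 12.9 and 5.03 CPM (0.391, 0.260 to 0.571).

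Among chromosome structure genes, Mki67, which coats mitotic chromosomes, had 441 CPM in turnover and 273 CPM in autonomy (0.618). Top2a, the topoisomerase that untangles sister chromatids, had 848 and 528 CPM (0.623). Both were called lower, and Smc4 (0.718) and Cdca2, a chromatin phosphatase subunit (0.752), were not. Tmpo had 276 and 342 CPM (1.24, 1.17 to 1.31), so that with Cdc25b it was one of the 2 genes above 1, as it was with TMM scaling (1.09).

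Counted by cell, fewer large cells were rich in these transcripts in autonomy. After each cell was thinned to 5000 UMIs, which leaves out the 3451 turnover and 3915 autonomy cells below that depth, 10 or more UMIs of the 42 genes were held by 75.4% of the turnover cells (585 of 776, interval 72.2 to 78.4) and by 44.5% of those in autonomy (222 of 499, interval 40.1 to 49.0). Unthinned, the shares at the same fraction of UMIs were 76.0% and 45.7%. This limit divides a continuous range: 84 cells of turnover and 37 of autonomy lay between 8 and 12. Cells with mature T cell markers served as background: 15 of 131 in autonomy (11.5%) reached the limit, at a median of 10975 UMIs. Among the 585 turnover and 222 autonomy cells at or over the limit, which were selected on these same genes, so that their sums are drawn together by the selection, the genes summed to 9529 CPM in turnover and 8812 CPM in autonomy (0.925). Of the 42, 2 were lower there, Gas2l3 (0.527) and Ttk (0.647), where 6.45% of genes were, and 2 higher, Cdc25b (1.78) and Tmpo (1.61), where 22.2% were.

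Large cells were divided by marker UMIs of 5000 into DN3-like cells (Il2ra without CD4 or CD8), ISP-like cells (CD8 without CD4), DP-like cells (both), cells low in CD8, cells with selection markers and mature-like cells. ISP-like cells numbered 346 and 140, and DP-like cells 242 and 134, in turnover and autonomy. Cd4 stood at 23.7 and 22.2 CPM in ISP-like cells against 291 and 394 CPM in DP-like cells. Because CD4 counts are low, some ISP-like cells may carry CD4 that was not sampled. Autonomy held 131 mature-like cells and turnover 2, although the label names only earlier stages.

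Pooled over cells, the summed level was highest in DP-like cells in both libraries, but by a wider margin over ISP-like cells in turnover. In turnover the sum was 2610 CPM in DN3-like cells, 7524 CPM in ISP-like and 13899 CPM in DP-like cells. In autonomy it was 4517, 7270 and 7937 CPM. DP-like cells thus had 1.85 times the ISP-like level in turnover and 1.09 times in autonomy; among Y-linked cells alone these DP-like to ISP-like ratios were 1.72 and 1.42. By gene, 39 of 42 were at least 1.5-fold higher in DP-like than in ISP-like cells in turnover, where 21.3% of all genes were, and 0 were lower, where 8.1% were. Cdc25c (2.45), Gas2l3 (2.38), Cenpf (2.37) and Nusap1 (2.35) led, and Mad2l1 (1.40), Smc4 (1.49) and Aurkb (1.49977) were the 3 not called. In autonomy 1 was, Cdc25b (1.52), where 24.7% were, and 0 were lower, where 6.75% were. From DN3-like to ISP-like cells the sum was 2.88 times higher in turnover, with 41 of 42 genes higher (13.4% of all genes), and 1.61 times higher in autonomy, with 31 of 42 (16.2% of all genes).

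**Figure D3:**
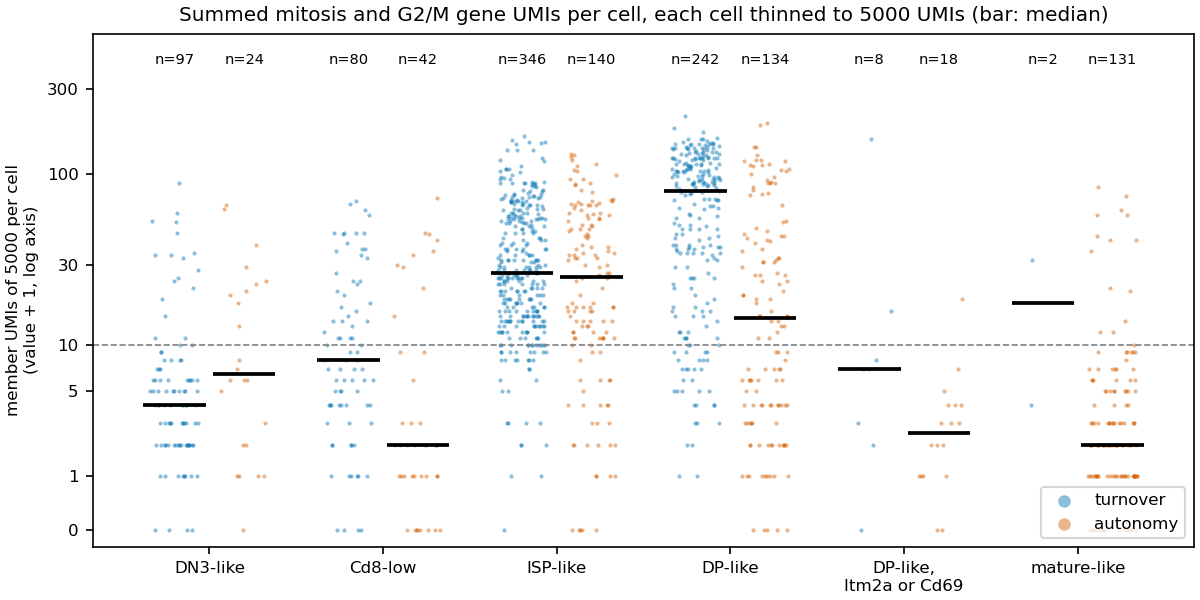
UMIs of the 42 genes per large cell after thinning to 5000 UMIs (y axis, log axis of value + 1) by stage (x axis), with 1 point a cell, turnover in blue, autonomy in orange, a black bar at each median and a dashed line at 10. Medians of ISP-like cells nearly coincide at 27 and 25.5, while those of DP-like cells are 79.5 in turnover and 14.5 in autonomy.

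ISP-like cells of the libraries were close in sum and differed gene by gene. They held 7524 CPM in turnover and 7270 CPM in autonomy (0.966, with an upper bound of 0.983). One gene, Ttk, was lower (27.9 and 18.2 CPM, 0.654), where 5.77% of genes were, and 2 were higher, where 25.9% were: Cdc25b (41.6 and 75.2 CPM, 1.81) and Tmpo (255 and 421 CPM, 1.65). Counting intervals lay below 1 for 15 genes and above 1 for 7. Below 1 stood Ccnb1 (192 and 131 CPM, 0.684), Hmmr (0.729), Cenpf (0.730) and Aurka (0.742). Above it stood Ccna2 (288 and 383 CPM, 1.33), Cdc20 (115 and 155 CPM, 1.35), Bub1b (1.20), Cenpa (1.16) and Ccnb2 (255 and 287 CPM, 1.13). Cyclin B1 and cyclin B2 transcripts therefore lay on opposite sides of 1 in these cells. With TMM scaling, chosen for the stages after seeing the data, the summed ratio was 0.845 with 7 genes lower and 1 higher, and Ccnb2 came to 0.984, while the intervals of Ccna2, Cdc20, Tmpo and Cdc25b stayed above 1 and those of Bub1b (0.905 to 1.22) and Cenpa (0.919 to 1.12) spanned it. Restricted to Y-linked cells, the summed ISP-like ratio was 0.745, from 30 autonomy cells at 5708 CPM. The 94 autonomy ISP-like cells with Xist held 8041 CPM. Single genes were not compared among Y-linked ISP-like cells, so the part of this mix in the genes above 1 was not tested. Over all large autonomy cells the genes summed to 4935 CPM in Y-linked cells and 6090 CPM in cells with Xist, with 9 of 42 higher in the latter, where 7.7% of genes were, and 0 lower, where 4.13% were. In DP-like cells those values were 8104 and 8075 CPM.

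DP-like cells held 13899 CPM in turnover and 7937 CPM in autonomy (0.571, 0.559 to 0.584). Of the 42 genes 34 were lower, where 6.51% of all genes were, and 0 higher, where 31.0% were. Nusap1 had 603 and 230 CPM (0.382), Top2a 1459 and 700 CPM (0.480), Ube2c 1226 and 569 CPM (0.464) and Kif11 345 and 167 CPM (0.484). All 8 spindle genes, all 5 kinesins and all 3 passenger complex genes were lower. Cdc25b (88.7 and 115 CPM, 1.29) and Tmpo (441 and 512 CPM, 1.16) were again the 2 above 1; with TMM scaling Tmpo came to 0.972 and Cdc25b to 1.08, and 39 genes were lower at a summed ratio of 0.478. The remaining uncalled genes were Ccna2 (0.694), Ccnb2 (0.707), Cdc20 (0.823), Cenpa (0.745), Cdca2 (0.689) and Anln (0.675).

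The DP-like gap depended in size on which cells were counted. With 8000 or more UMIs the ratio was 0.745, with gates on all UMIs 0.727, and among cells with 10 or more UMIs of S phase genes 0.663. Markers of the DN3 stage stood higher in the autonomy DP-like cells, at 1099 CPM summed over 8 genes (1 of them, Erg, at 0) against 174 CPM in turnover (also with Erg at 0); Il2ra, the interleukin 2 receptor alpha chain, had 119 against 16.6 CPM and Ptcra, the pre-T cell receptor alpha chain, 435 against 95.4 CPM. The macrophage and dendritic list summed to 157 and 159 CPM, and the 4 erythroid genes were at 0 in both. In ISP-like cells, where the summed ratio of the 42 genes was 0.966, the DN3 markers also stood higher in autonomy. They summed to 788 against 199 CPM in turnover, with Erg at 0 in both. Il2ra had 89.1 against 9.89 CPM there, and Ptcra 341 against 109 CPM. The part of the DN3 markers in the DP-like result was not tested.

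**Figure D4:**
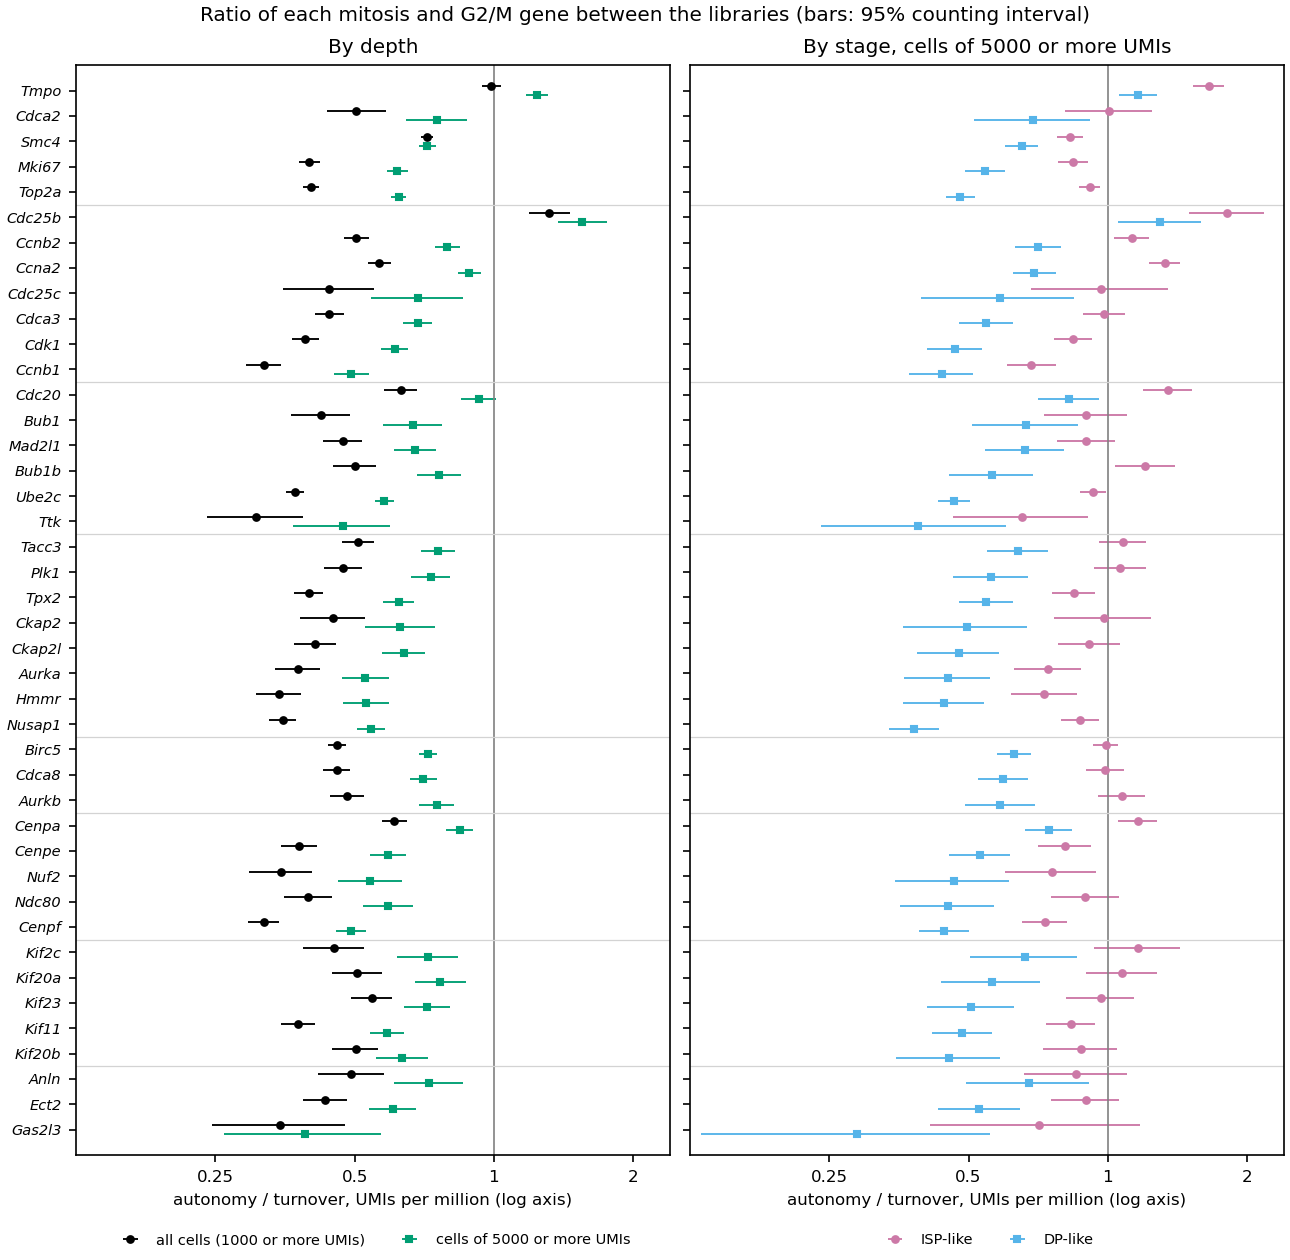
Ratio of autonomy to turnover in CPM (x axis, log axis) for each of the 42 genes (y axis, grouped by role), with 95% counting intervals: all cells and large cells on the left, ISP-like and DP-like large cells on the right. DP-like ratios lie left of 1 except Cdc25b (1.29) and Tmpo (1.16, or 0.972 with TMM scaling), and ISP-like ratios lie on both sides of 1, from 0.654 to 1.81.

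DN3-like cells showed the reverse of the DP-like difference, on few cells. The 97 turnover cells held 2610 CPM and the 24 autonomy cells 4517 CPM (1.73), with 26 of 38 genes higher, where 22.8% of genes were, and 0 lower, where 18.5% were. Ccna2 had 70.1 and 233 CPM (3.32), Cdk1 57.4 and 155 CPM (2.70) and Aurkb 49.6 and 134 CPM (2.70). Turnover DN3-like cells were shallower, at a median of 8609 against 16445 UMIs, and carried more Tcrg-C1, a gamma chain constant region (596 against 56.4 CPM). With a productive TRB chain, the 19 turnover DN3-like cells held 3563 CPM and the 10 autonomy cells 2902 CPM. Without one, 78 turnover cells held 2178 CPM and 14 autonomy cells 5395 CPM. Whether depth, gamma-delta cells or TRB state had a part in the difference was not tested.

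TRB state, read from the V(D)J contigs of the same cells, split these genes in opposite directions in the 2 libraries. A cell was called productive with at least 1 productive TRB contig; 649 turnover and 379 autonomy large cells were. In turnover, productive cells held 8562 CPM and the 127 others 4228 CPM (ratio of others to productive 0.494, 0.480 to 0.507). In autonomy, productive cells held 5076 CPM and the 120 others 7121 CPM (1.40, 1.37 to 1.43). By gene, 40 of 42 were lower in turnover cells without a productive chain, where 12.8% of genes were, and 0 higher, where 24.4% were. In such autonomy cells 10 of 42 were higher, where 8.67% were, and 0 lower, where 10.7% were. The difference between the libraries in this contrast was not tested.

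Single genes followed the sums. Mki67 had 469 CPM in productive and 196 CPM in other turnover cells, and 248 and 350 CPM in autonomy. Birc5 had 578 and 240 CPM in turnover, and 356 and 505 CPM in autonomy. Ccna2 had 318 and 132 CPM in turnover, and 225 and 386 CPM in autonomy, the highest autonomy ratio of the 42 (1.71). Smc4, with 626 and 554 CPM (0.885), and Kif2c, with 51.2 and 34.7 CPM (0.677), were the 2 not called in turnover.

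By cell, 84.9% of productive and 26.8% of other turnover cells reached 10 UMIs of 5000, against 37.5% and 66.7% in autonomy. Stage makeup differed with TRB state. Of the 127 turnover cells without a productive chain, 78 were DN3-like, 11 ISP-like and 15 DP-like; of the 120 in autonomy, 14 were DN3-like, 48 ISP-like and 35 DP-like. Of the 379 productive autonomy cells 117 were mature-like, at 1921 CPM, and without mature-like and macrophage marker cells the autonomy ratio was 1.24.

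Within stages the turnover contrast shrank or vanished. In turnover ISP-like cells the values were 7559 CPM with and 6146 CPM without a productive chain (0.813), and in DP-like cells 13900 and 13895 CPM, with an interval of the ratio from 0.959 to 1.04. Of the 42 genes 14 were lower without a productive chain in turnover ISP-like cells, where 25.7% of genes were, from 11 such cells. In autonomy the cells without a productive chain were higher in both stages, at 6951 and 8039 CPM in ISP-like cells (1.16, 1.12 to 1.19) and 7308 and 9839 CPM in DP-like cells (1.35, 1.29 to 1.40). In ISP-like autonomy cells 0 of 42 genes were lower and 0 higher, where 8.59% and 9.35% were. In DP-like autonomy cells 16 of 41 genes were higher without a productive chain, where 9.54% were; Cdc20 had 150 and 303 CPM (2.02) and Kif20b 45.5 and 91.7 CPM (2.02). DN3-like cells split as the whole libraries did, on few cells. In turnover the 19 productive cells held 3563 CPM and the 78 others 2178 CPM (0.611), with 18 of 35 genes lower, where 16.6% were. Top2a had 381 and 127 CPM there (0.334). In autonomy the 10 productive cells held 2902 CPM and the 14 others 5395 CPM (1.86), with 23 of 29 genes higher, where 15.4% were.

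Compared between libraries within 1 TRB state, the DP-like gap was larger among productive cells. There the ratio of autonomy to turnover was 0.526, with 39 of 42 genes lower, where 7.77% were, and 0 higher, where 30.9% were. Among DP-like cells without a productive chain it was 0.708, with 20 of 41 lower, where 8.54% were, and 4 higher, where 31.0% were. Cenpa was the highest of these, with 233 CPM in turnover and 459 CPM in autonomy. In ISP-like cells the ratio was 0.920 among productive cells, with 1 of 42 genes lower, where 7.07% were, and 2 higher, where 25.1% were. Among the others, 11 turnover and 48 autonomy cells, it was 1.31. The median ratios over all genes were 1.14 among productive ISP-like cells and 1.20 among the others. In the others 14 of 39 genes were higher, near the all-gene share of 33.1%, and 1 lower, Ccnb1 (167 and 109 CPM), where 7.49% were. A chain missed by the V(D)J library would count a cell as not productive, so the state is a limit on detection as well as on rearrangement.

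**Figure D5:**
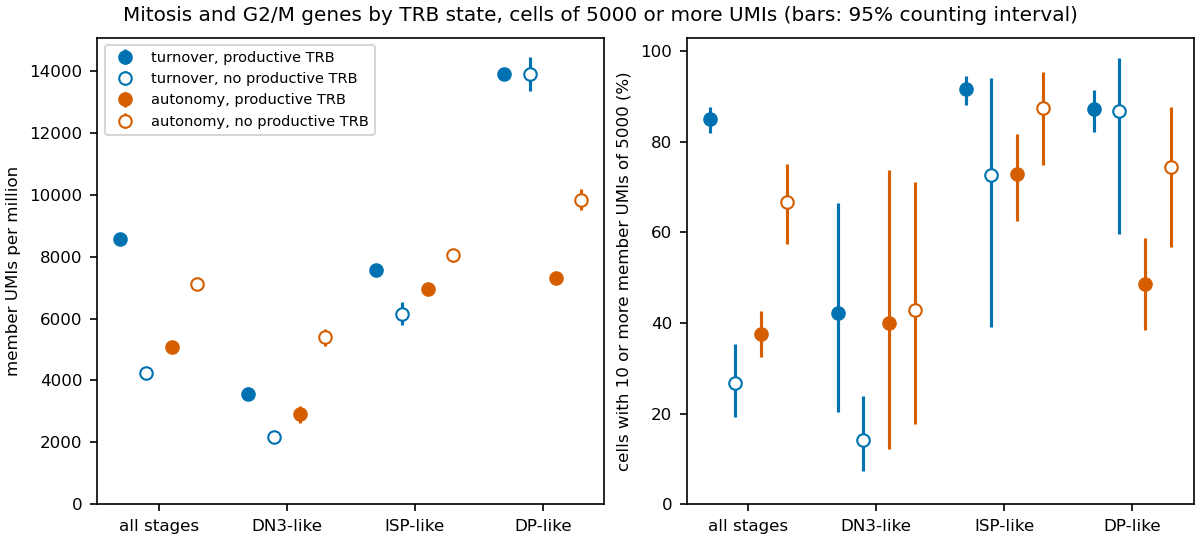
Summed UMIs of the 42 genes in CPM (left) and share of cells with 10 or more of 5000 (right, %) in large cells by stage (x axis), with a productive TRB chain (filled) or without (open), turnover in blue and autonomy in orange, bars being 95% counting intervals. Over all stages, open points lie below filled ones in turnover (4228 and 8562 CPM) and above them in autonomy (7121 and 5076 CPM).

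Cells rich in these transcripts shared TRB chains far more often in autonomy. Of the cells with exactly 1 productive chain that held 10 or more UMIs of 5000, 509 turnover cells carried 492 different chains and 136 autonomy cells carried 72. In turnover 6.29% of such cells shared a chain with another, and in autonomy 61.8%. Among all large cells with 1 chain the shares were 7.50% and 42.1%. The largest autonomy clone had 20 large cells, 13 of them over the limit, at 6379 CPM.

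Autonomy clones differed in the level of these genes. The 9 clones of 5 or more large cells ranged from 1572 to 9972 CPM. In the second largest, 13 of 14 cells were over the limit (8907 CPM) and 12 of the 14 were ISP-like. In the lowest, 1 of 5 cells was. Cells of 1 clone are not separate samples of the condition. In the cells with exactly 1 productive chain, with each chain weighted equally whatever its cells' depth, the mean was 9973 CPM in turnover and 3011 CPM in autonomy (0.302). That value differs from the ratio over all large cells in the choice and weighting of cells as well as in the clones, and the part of each was not tested.

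The genes varied together across large cells. Over the 861 pairs of genes, the median Pearson correlation of log2(UMIs of 5000 + 1) was 0.362 in turnover (776 cells) and 0.403 in autonomy (499 cells). The closest pair was Cenpf with Ube2c in turnover (0.823) and Birc5 with Top2a in autonomy (0.798). Birc5 followed the sum of the other 41 most closely in both libraries (0.817 and 0.860). Gas2l3, at 0.305 and 0.177, followed it least, but had a mean of only 0.0799 and 0.0120 UMIs of 5000 a cell. Counts that low limit a correlation, so its rank is no measure of how closely the gene follows the others. These cells share a library and its stages, so the values describe the libraries.

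Correlation with S phase genes, the 42 genes of DNA replication fixed as a separate list, was lower over the large cells of turnover. The sum of the mitosis and G2/M genes correlated with the sum of S phase genes at 0.333 in turnover and 0.610 in autonomy. The libraries differed in makeup, with 2 mature-like cells in turnover and 131 in autonomy. Those in autonomy had medians of 2 UMIs of the mitosis and G2/M genes and 5 of the S phase genes, of 5000. The part of such cells in the 2 correlations was not tested. Top2a was among the genes closest to S phase (0.406 and 0.613), and Cdc20 among the farthest (-0.168 and 0.157). Large cells with 10 or more S phase UMIs of 5000 numbered 658 and 284; in them the mitosis and G2/M genes summed to 8236 CPM in turnover and 7053 CPM in autonomy (0.856), with 4 lower (Ccnb1, Ttk, Cenpf and Gas2l3) and 2 higher (Cdc25b and Tmpo), where 5.81% and 24.6% of all genes were. Of 4606 other genes, the 10 most like the sum of the 42 in both libraries were Hmgb2, Cks2, Hmgn2, Hmgb1, Tuba1b, Hist1h2ap, H2afz, Ptma, Stmn1 and Ube2s. Hmgb2, a chromatin protein, led with correlations of 0.838 and 0.859.

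Related lists were less far apart in large cells. Of 19 other G2/M genes with 100 or more UMIs, 4 were lower and 0 higher (median 0.786): lowest were Cks2, a CDK1 subunit (467 and 276 CPM, 0.592), Cbx5 (0.596) and Ckap5 (0.601), and highest Gtse1 (1.04), Rangap1 (1.03) and Lbr (0.994). Of the 42 S phase genes 3 were lower, Rad51ap1 (0.645), Tipin (0.647) and Prim1, a primase subunit (0.666), and 0 higher (median 0.843); the highest were Ung (1.42), Mcm2 (1.40) and Mcm6 (1.28). The all-gene shares for both lists are the 6.84% lower and 28.3% higher given for large cells.

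Regulators of this transcription and G1 genes stood on both sides of 1. Of 34 regulators 2 were lower and 5 higher (median 1.10), and of 11 G1 genes 2 and 3, beside the same shares of 6.84% and 28.3% of all genes. E2f1, an activator of S phase genes, had 17.1 CPM in turnover and 42.3 CPM in autonomy (2.48), E2f5 4.70 and 9.14 CPM (1.94) and Mybl2, which encodes B-MYB, 32.8 and 53.8 CPM (1.64). E2f7, a repressor (0.643), and Lin9, a core subunit of DREAM (0.646), were the 2 lower ones. Fbxo5, an inhibitor of the anaphase-promoting complex, was next and not called (0.681). In ISP-like cells 9 of 32 regulators were higher and 0 lower, where 25.9% and 5.77% of all genes were. The 2 lower G1 genes were Cdkn1a, the CDK inhibitor p21 (11.3 and 2.28 CPM, 0.202) and Cdk6 (0.446), and the 3 higher ones Ccnd2 (40.4 and 108 CPM, 2.67), Ccnd3 (714 and 1343 CPM, 1.88) and Cdkn2c (1.77). Ccne2, at 0.819, was the next lowest. Ccnd2 and Ccnd3 encode D-type cyclins, which act in G1, and Cdkn2c an inhibitor of their kinases.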

How the data were processed

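Thymocyte suspensions were profiled with a 5′ single-cell kit, giving 1 gene expression and 1 V(D)J library in each of turnover and autonomy, per the labels. The authors deposited whole-number UMI counts for each gene and cell, and a list of V(D)J contigs with UMI and read counts. Cell Ranger 3.0.2, Seurat 3.1.3.9002 and mm10 are named in the submitters' processing notes, with no further settings. Samples were grouped by their condition label.

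Barcodes with 1000 or more UMIs were kept. Counts were summed over cells and divided by their UMIs (CPM), with exact conditional binomial intervals for ratios and exact Clopper-Pearson intervals for shares, which cover counting error only. No p-value was computed, because each condition has 1 library and cells are not replicates. Stages were set on cells thinned to 5000 UMIs, in order: 3 or more UMIs of 6 macrophage genes; 2 or more of S1pr1, Klf2 and Ccr7 (mature-like); then Cd8a plus Cd8b1 of 2 or more, Cd4 of 1 or more, Il2ra of 1 or more, and Itm2a plus Cd69 of 2 or more. No doublet caller was run and no doublets were removed; the values without cells of 2 productive TRB or 3 productive TRA chains were computed as an alternative. All 42 genes are reported; of each other list, the 3 highest and 3 lowest ratios among genes of 100 or more UMIs are named, and the 10 genes of 500 or more UMIs most correlated with the sum. The genes and lists were chosen with earlier results of these data known. Python 3.11.15, scipy 1.17.1 and edgeR 4.0.16 (TMM factors only) in R 4.3.3 were used, and the ratio and thinning code was tested on simulated data. Alternatives were other depth limits, scaling, gates and subsets of cells. Promoter windows are RefSeq's (GRCm38.p6).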

Additional observations from a re-analysis of the deposited data

Results flagged for a closer look

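The summed mitosis and G2/M genes moved in opposite directions with TRB state in the 2 libraries: the ratio of cells without a productive TRB chain to cells with one was 0.494 in turnover and 1.40 in autonomy, among cells of 5000 or more UMIs. This difference was not tested, because each condition has 1 library. Within DP-like cells the ratios were 0.9997 and 1.35, from 15 and 35 cells without a productive chain.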

How the results depend on the processing

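No paired analysis was possible because each condition has 1 gene expression library and no replicate number. Over all cells the summed ratio of autonomy to turnover (0.486) was 0.457 in cells of 2000 or more UMIs, 0.496 with cells thinned to 1000 UMIs, 0.399 with TMM factors and 0.436 among Y-linked cells without Xist, and 38 to 40 genes were lower at 1.5-fold, or 29 at 2-fold. In cells of 5000 or more UMIs the ratio (0.687) was 0.552 from 3000 UMIs and 0.785 from 8000 UMIs, 0.602 with TMM, 0.536 with cells thinned to 5000 UMIs, 0.826 without mature-like and macrophage marker cells, 0.677 without the 4% of cells with the most UMIs, 0.622 among Y-linked cells, 0.302 with each TRB clone weighted equally (in cells with 1 productive chain only) and 0.856 in cells rich in S phase UMIs. The 20 lower genes became 4 at 2-fold, 35 with TMM, 36 from 3000 UMIs and 4 in S phase-rich cells, and the 1 higher gene became 0, 0, 0 and 2 in the same order and 0 among Y-linked cells.

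The share of cells at 10 UMIs of 5000 was 87.0% in turnover and 57.7% in autonomy at 5 UMIs, 57.7% and 32.9% at 20 UMIs, and 83.7% and 72.5% in S phase-rich cells; in autonomy it was 57.0% without mature-like and macrophage marker cells. The ratio of cells without to cells with a productive TRB chain in turnover (0.494) turned to 1.08 over ISP-like and DP-like cells together, was 0.813 in ISP-like and 0.9997 in DP-like cells alone, and was 0.520 when a contig needed 3 UMIs, 0.593 from 8000 UMIs and 0.468 among Y-linked cells. In autonomy (1.40) it was 1.26, 1.16, 1.35, 1.53, 1.28 and 1.14 in the same order, and 1.24 without mature-like and macrophage marker cells. In turnover, cells without a productive chain were 11 ISP-like and 15 DP-like, and productive cells 335 ISP-like and 227 DP-like. The cause of the turn was not tested.

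The ISP-like ratio between libraries (0.966) was 0.9999 from 8000 UMIs, 0.745 among Y-linked cells, 1.004 in S phase-rich cells and 0.909 thinned. The DP-like ratio (0.571) was 0.727 with gates on all UMIs, and 0.745, 0.616, 0.663 and 0.464 in the same order. The ratio of DP-like to ISP-like in turnover (1.85) was 1.73 with gates on all UMIs and 1.72 among Y-linked cells; in autonomy (1.09) it was 1.29 and 1.42, 1.36 from 8000 UMIs and 1.23 in S phase-rich cells. With TMM factors, the ISP-like ratio was 0.845 and the DP-like ratio 0.478. The S phase, TMM and Y-linked by stage and single-stage alternatives were chosen after seeing the data. No gene called at 1.5-fold moved to the other side of 1 under the scaling, thinning and Y-linked alternatives run for single genes. Genes nearer 1 were not covered by that count: over all cells 41 of the 42 were below 1, and 40 with cells thinned to 1000 UMIs.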
